A study of Homo sapiens with 12 samples.

Results

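The 8 genes described here encode the 7SK small nuclear ribonucleoprotein and its cargo, the kinase P-TEFb. They were chosen by symbol as RN7SK, MEPCE, LARP7, HEXIM1, HEXIM2, CDK9, CCNT1 and CCNT2, and values of both comparisons were known when the list was made. All 8 were among the 28008 genes of the MUC1-C silencing count table, and 7 were among the 25435 genes of the MUC1-C overexpression count table, which holds no row for RN7SK. RNA-Seq was performed on LNCaP, an established androgen receptor-positive prostate cancer cell line, and on its enzalutamide-resistant derivative LNCaP-ER. The LNCaP-ER cells carried a DOX-inducible MUC1 shRNA (tet-MUC1shRNA) after puromycin selection, and were given either the DMSO vehicle, in 3 libraries, or DOX at 500 ng/mL, in 3 libraries, over 7 days. DOX was given to shRNA-carrying cells alone in these libraries, so effects of DOX and of the shRNA cannot be told apart. In the other experiment, 3 LNCaP libraries were set against 3 libraries of LNCaP/MUC1-C OE cells, in which a CMV-driven vector expressed MUC1-C. The labels call the controls wild-type whereas the count table names them vector, so it is not settled whether they carried an empty vector. The titles of the overexpressing libraries read LNCaP shMUC1-C OE, and what the prefix sh stands for there is not given in the sources used here. The sources used here do not state whether any of these lines was 1 clone.

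RN7SK is a short RNA made by RNA polymerase III (Pol III) that is not polyadenylated. It is the scaffold of the 7SK particle, in which MEPCE caps its 5′ end and LARP7 holds its 3′ end. HEXIM1 and HEXIM2 bind the RNA and then inhibit P-TEFb, the complex of the kinase CDK9 with cyclin T1 (CCNT1) or cyclin T2 (CCNT2). P-TEFb that leaves the particle phosphorylates the tail of RNA polymerase II (Pol II) and the factors that hold it near promoters, which lets the polymerase enter productive elongation.

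RN7SK lies on chromosome 6 at chr6:52995620-52995951 (GRCh38.p14, plus strand), a single RNA gene of 332 bases in RefSeq. Its transcript in GENCODE release 29 has 328 bases, and its ends are shown because the results turn on this RNA and its partners meet it there. The capitals mark GATC (GAUC in the RNA), at positions 12, 41 and 63 counted from 1 at the 5′ end. GAUC repeats of the 5′ hairpin are the known contact of HEXIM proteins, and the T-rich 3′ end is where LARP7 is known to bind.

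RN7SK, bases 1 to 110: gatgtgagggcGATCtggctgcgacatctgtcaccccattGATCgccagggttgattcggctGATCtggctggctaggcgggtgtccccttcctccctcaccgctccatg

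RN7SK, bases 293 to 328: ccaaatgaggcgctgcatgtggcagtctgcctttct

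The protein-coding genes were placed in the same build. LARP7 is at chr4:112637143-112657586, MEPCE at chr7:100428790-100434118, HEXIM1 at chr17:45148475-45152099 and HEXIM2, next to it, at chr17:45160174-45170040. CDK9 is at chr9:127786034-127790792 and CCNT2 at chr2:134918822-134959342, all on the plus strand, whereas CCNT1 is on the minus strand at chr12:48688458-48716707. RefSeq lists 12 start sites for these 7 genes, and the window from 250 bases before to 50 bases after each was searched on both strands. One motif searched was TATATAA, a form of the promoter element that binds TBP, and the other was CACGTG, the E-box known to be bound by MYC. The motif TATATAA was present in 2 of the 12 windows, at HEXIM1 and MEPCE, and in 2.57% of 35116 such windows of all genes. Those windows are shown, at chr17:45148225-45148524 and chr7:100428540-100428839 (GRCh38.p14, plus strand), and the capitals mark the motif. Whether the motif bears on the expression of HEXIM1 or MEPCE was not tested. CACGTG was also in 2 of the 12 windows, another start of MEPCE (chr7:100429197-100429496) and 1 start of CCNT1 (chr12:48716658-48716957), against 7.26% of all windows. These matches describe letters in a window and not binding sites.

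HEXIM1 promoter: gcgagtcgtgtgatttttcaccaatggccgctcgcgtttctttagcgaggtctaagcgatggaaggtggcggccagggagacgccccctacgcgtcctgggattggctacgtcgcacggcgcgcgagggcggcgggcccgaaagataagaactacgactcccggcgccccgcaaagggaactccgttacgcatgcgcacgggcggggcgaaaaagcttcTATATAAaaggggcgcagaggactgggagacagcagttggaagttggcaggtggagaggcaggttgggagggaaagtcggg

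MEPCE promoter: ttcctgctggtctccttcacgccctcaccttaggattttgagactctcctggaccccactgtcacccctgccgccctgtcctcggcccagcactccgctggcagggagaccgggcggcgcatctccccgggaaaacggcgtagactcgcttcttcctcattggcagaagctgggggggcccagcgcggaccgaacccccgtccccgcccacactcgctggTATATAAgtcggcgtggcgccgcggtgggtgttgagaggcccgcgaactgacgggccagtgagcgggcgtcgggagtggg

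Total counts were between 28045894 and 45807989 in the silencing libraries and between 13806856 and 19208944 in the overexpression libraries. MUC1, the shRNA target, had 26, 10 and 13 counts in the vehicle libraries and 3, 42 and 8 counts in those labelled DOX. The library labelled DOX replicate 2 therefore went against its label, and it also had 11.2% of genes at 0 counts, as compared with 28.0% to 38.1% in the other 5. The MUC1 log2 fold change was 0.12 (standard error 0.93), and -1.83 (standard error 0.67) without DOX replicate 2. Neither passed an adjusted p under 0.05 in edgeR, so at these low counts the fit does not show less MUC1 RNA with DOX. Groups are named by their labels, and the fold change of each of the 8 genes is also given without DOX replicate 2. In the overexpression experiment MUC1 had 25 to 31 counts in LNCaP and 9168 to 12622 in LNCaP/MUC1-C OE. Of 7 luminal prostate markers, FOLH1, KLK2 and KLK3 were at 0 in all 3 LNCaP/MUC1-C OE libraries and TMPRSS2 had 0 or 1 count, whereas KLK3 had 432 to 514 counts in LNCaP. The summed luminal markers were at 133 to 148 counts per 1000000 (CPM) in LNCaP and 59.8 to 65.4 CPM in LNCaP/MUC1-C OE, and at 4395 to 4767 CPM in vehicle and 4875 to 5347 CPM in DOX libraries. Fibroblast markers summed to at most 13.2 CPM and endothelial markers to at most 7.31 CPM in the silencing libraries. In the overexpression experiment fibroblast markers summed to 55.4 to 60.1 CPM in LNCaP and 39.6 to 43.8 CPM in LNCaP/MUC1-C OE, mostly from COL1A1, leukocyte markers to 1.64 to 2.27 and 0.612 to 1.29 CPM, and endothelial markers to at most 0.394 CPM. In the silencing experiment leukocyte markers summed to 5.75 to 7.60 CPM in vehicle and 21.7 to 23.3 CPM in DOX libraries, nearly all from CD68, with PTPRC at 0 in the vehicle libraries and at no more than 11 counts in the DOX libraries. Their part in the results below was not tested.

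RN7SK had more counts than any other gene in each of the 6 silencing libraries, with 1.57 to 4.20 times the counts of the next gene, which was MALAT1, EEF1A1 or EEF2. In CPM normalized by edgeR's TMM method, RN7SK was at 23407, 27678 and 32257 in vehicle replicates 1, 2 and 3 and at 15931, 9821 and 17494 in DOX replicates 1, 2 and 3. Every DOX library was below every vehicle library, and DOX replicate 2 was the lowest. The log2 fold change was -0.95 (standard error 0.23), or 0.519 times the vehicle level, and -0.70 (standard error 0.19) without DOX replicate 2. In bulk RNA, fewer cells that express a gene and less RNA per cell cannot be told apart. As a share of all counts RN7SK held 2.37%, 2.65% and 3.08% in the vehicle libraries, with a mean of 2.70% ± 0.357 (SD, n = 3). In the DOX libraries it held 1.60%, 1.04% and 1.77%, with a mean of 1.47% ± 0.382 (SD, n = 3). The 95% Wilson intervals of these shares were at most 0.0125 percentage points wide and cover counting error only, since the reads carry no molecular identifiers, so the spread between libraries far exceeded the counting error. RefSeq names 293 RN7SK pseudogenes, none of which has a row in either count table, and how the authors' counting treated reads shared with them is not given in the sources used here.

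**Figure D1:**
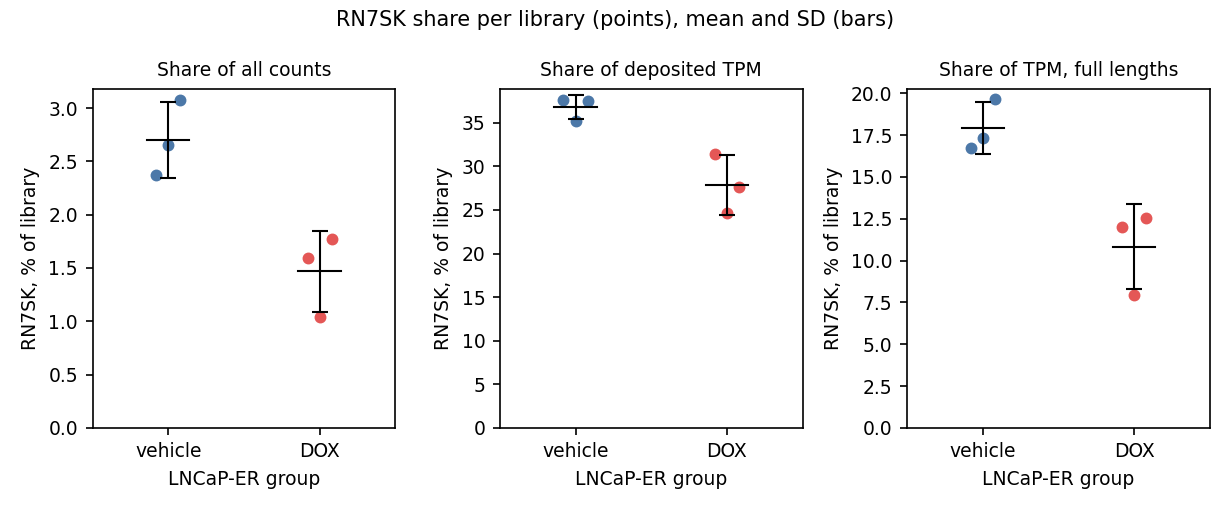
RN7SK as a percentage of each LNCaP-ER library (y axes, starting at 0) in vehicle and DOX groups (x axes), as a share of counts, of the deposited TPM values and of TPM recomputed with full transcript lengths. Points are libraries, and the bars give the mean and SD of 3 libraries; on each scale the 3 DOX libraries lie below the 3 vehicle libraries.

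The libraries of both experiments were labelled as stranded mRNA libraries, a preparation that selects polyadenylated RNA, yet other short RNAs without a poly(A) tail were also abundant in the silencing table. RMRP, the RNA of RNase MRP, had 97928 to 116751 counts in vehicle and 47356 to 203997 counts in DOX libraries. RPPH1, the RNA of RNase P, had 106678 to 172563 counts in vehicle and 52654 to 177572 in DOX libraries. In the overexpression table RMRP had 3 to 16 counts and RPPH1 had 3 to 14 counts, and RN7SL1 and RN7SL2, the signal recognition particle RNAs, had no row, like RN7SK. The short-RNA content thus differed between the experiments by orders of magnitude, and the tables were processed as separate sets.

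**Figure D2:**
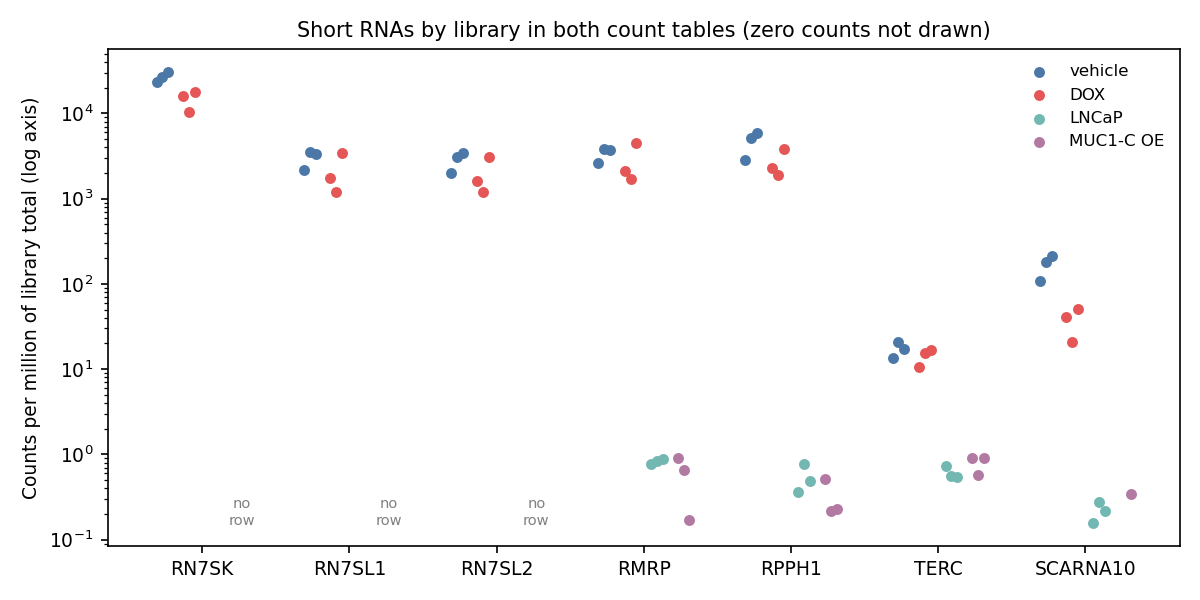
CPM of the library total (y axis, log scale) for RN7SK and 6 other short RNAs in every library of both experiments, 3 points per group. In the silencing libraries RMRP lies at 1689 or more, whereas in the overexpression libraries it lies at 0.895 or less.

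A list of 41 other short RNAs that lack a poly(A) tail was examined beside RN7SK. Of the 23 that passed the filter on low counts, 7 fell and 0 rose in the DOX libraries at an adjusted p under 0.05, and the median log2 fold change was -0.79, as compared with -0.02 over all 14683 genes tested. Over those genes 14.5% were called lower and 12.8% higher. SCARNA10, a Cajal body guide RNA, went from 173 ± 60.4 to 36.8 ± 15.4 CPM (SD, n = 3; log2 fold change -2.23, adjusted p = 0.00321 from edgeR). RNU4-2, a U4 spliceosomal RNA, had a log2 fold change of -2.34 (adjusted p = 0.00648 from edgeR) and SNORA73B, a small nucleolar RNA, of -1.45 (adjusted p = 0.0109 from edgeR). The 4 abundant Pol III transcripts did not pass the test, with log2 fold changes of -0.86 for RPPH1 (adjusted p = 0.0843), -0.61 for RN7SL2 (adjusted p = 0.22), -0.58 for RN7SL1 (adjusted p = 0.274) and -0.37 for RMRP (adjusted p = 0.454). When no filter was used, 2 of the list were past the threshold, and SCARNA10, RNU4-2 and SNORA73B were not (adjusted p of 0.0732, 0.0922 and 0.14). With the replicate number as a block SCARNA10 and RNU4-2 did not pass (adjusted p of 0.0503 and 0.0755). Without DOX replicate 3, which had the most of these RNAs in its group, 12 of the list were called. Of the 41, 23 had a row in the overexpression table and 3 passed the filter. Of these SNORD17 rose with MUC1-C OE at a low level, from 1.61 ± 0.223 to 2.74 ± 0.412 CPM (SD, n = 3; log2 fold change 0.76, adjusted p = 0.00522 from edgeR). Over all genes there 33.2% were called higher. SNORD17 was also among the 7 that fell with DOX (log2 fold change -1.29, adjusted p = 0.00773 from edgeR).

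Among the counts of RN7SK, RN7SL1, RN7SL2, RMRP and RPPH1 together, RN7SK made up 71.0%, 63.0% and 65.3% in the vehicle libraries and 67.3%, 63.5% and 54.4% in the DOX libraries. These shares overlapped between the groups, at 66.4% ± 4.15 and 61.7% ± 6.65 (SD, n = 3), unlike the share of all counts. The sum of the listed short RNAs other than RN7SK was 1.04%, 1.67% and 1.74% of counts in vehicle and 0.81%, 0.624% and 1.54% in DOX libraries. How far this content of the libraries takes part in the RN7SK difference was not tested.

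MEPCE and LARP7, the constant partners of the RNA, had opposite signs. The MEPCE level was 73.2, 63.4 and 66.9 CPM in vehicle and 90.1, 69.6 and 88.7 CPM in DOX libraries, so that DOX replicate 2 lay within the vehicle range and the other 2 DOX libraries above it. Its log2 fold change was 0.29 (standard error 0.12), and 0.43 (standard error 0.09) without DOX replicate 2. LARP7 was at 58.0, 56.1 and 54.8 CPM in vehicle and 42.4, 35.7 and 40.0 CPM in DOX libraries. The groups did not overlap, and the log2 fold change was -0.52 (standard error 0.10), or -0.42 (standard error 0.09) without DOX replicate 2.

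In the overexpression experiment, with libraries 1, 2 and 3 in order, MEPCE was at 77.2, 77.6 and 79.1 CPM in LNCaP and at 69.1, 67.5 and 73.7 CPM in LNCaP/MUC1-C OE. The difference was small and without overlap, at a log2 fold change of -0.15 (standard error 0.05). LARP7 was at 60.6, 53.6 and 59.3 CPM in LNCaP and at 87.4, 96.1 and 87.0 CPM in LNCaP/MUC1-C OE. It had the highest log2 fold change of the 7 listed genes there, 0.64 (standard error 0.06). The log2 fold changes of both genes thus had opposite signs in the silencing and the overexpression libraries, and the difference between the experiments was not tested. With DOX, however, MEPCE overlapped between the groups and was not past an adjusted p under 0.05 in edgeR.

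HEXIM1, an inhibitor of P-TEFb named for its induction by hexamethylene bisacetamide, was at 53.7, 42.1 and 35.6 CPM in vehicle and at 85.0, 53.6 and 81.8 CPM in DOX libraries. It was the only one of the 8 genes above the call threshold in the upward direction, although DOX replicate 2 fell just under vehicle replicate 1 on this scale. The log2 fold change was 0.75 (standard error 0.20), and 0.96 (standard error 0.15) without DOX replicate 2. In LNCaP it was at 71.8, 73.3 and 67.8 CPM and in LNCaP/MUC1-C OE at 76.1, 83.2 and 89.7 CPM, which did not overlap. The log2 fold change there was 0.23 (standard error 0.06) with TMM factors and 0.07 with library size only.

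HEXIM2, its paralog, was sparse. It had 85 to 167 counts in the silencing libraries, at 2.76, 3.88 and 3.02 CPM in vehicle and 2.76, 3.77 and 3.60 CPM in DOX libraries. The groups overlapped, and the log2 fold change of 0.07 (standard error 0.26) was within its error, as was that of 0.02 (standard error 0.27) without DOX replicate 2. In the overexpression libraries it was at 6.85, 7.92 and 7.06 CPM in LNCaP and 5.95, 5.58 and 6.58 CPM in LNCaP/MUC1-C OE. The OE values were all lower, and the log2 fold change was -0.26 (standard error 0.13).

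The kinase CDK9 was at 70.7, 78.5 and 74.9 CPM in vehicle and 81.8, 70.9 and 84.0 CPM in DOX libraries. The groups overlapped and the log2 fold change was 0.08 (standard error 0.10), and 0.18 (standard error 0.09) without DOX replicate 2. In LNCaP it was at 43.1, 43.2 and 44.5 CPM, and in LNCaP/MUC1-C OE at 34.4, 32.8 and 32.8 CPM. There the groups were apart, at a log2 fold change of -0.39 (standard error 0.06).

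CCNT1, the main cyclin of P-TEFb, was at 156, 174 and 184 CPM in vehicle and 175, 138 and 159 CPM in DOX libraries, and the groups overlapped around a log2 fold change of -0.12 (standard error 0.11), which was -0.0034 (standard error 0.10) without DOX replicate 2. It was at 130, 128 and 126 CPM in LNCaP and 131, 131 and 124 CPM in LNCaP/MUC1-C OE, where the log2 fold change was 0.01 (standard error 0.05). CCNT2, the alternative cyclin, was at 70.7, 76.0 and 81.2 CPM in vehicle and 58.3, 51.8 and 54.1 CPM in DOX libraries. All DOX values of CCNT2 were lower, and the log2 fold change was -0.47 (standard error 0.10), or -0.40 (standard error 0.10) without DOX replicate 2. In LNCaP it was at 69.9, 66.3 and 70.3 CPM and in LNCaP/MUC1-C OE at 75.3, 78.1 and 74.8 CPM. The log2 fold change of 0.14 (standard error 0.05) went to -0.01 when libraries were scaled by size only, a scaling that moved the median of all genes there from -0.01 to -0.16. With that scaling LARP7 was at 0.48, MEPCE at -0.31, HEXIM2 at -0.41, CDK9 at -0.54 and CCNT1 at -0.14, and these 5 genes, without HEXIM1 and CCNT2, were past the threshold.

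**Figure D3:**
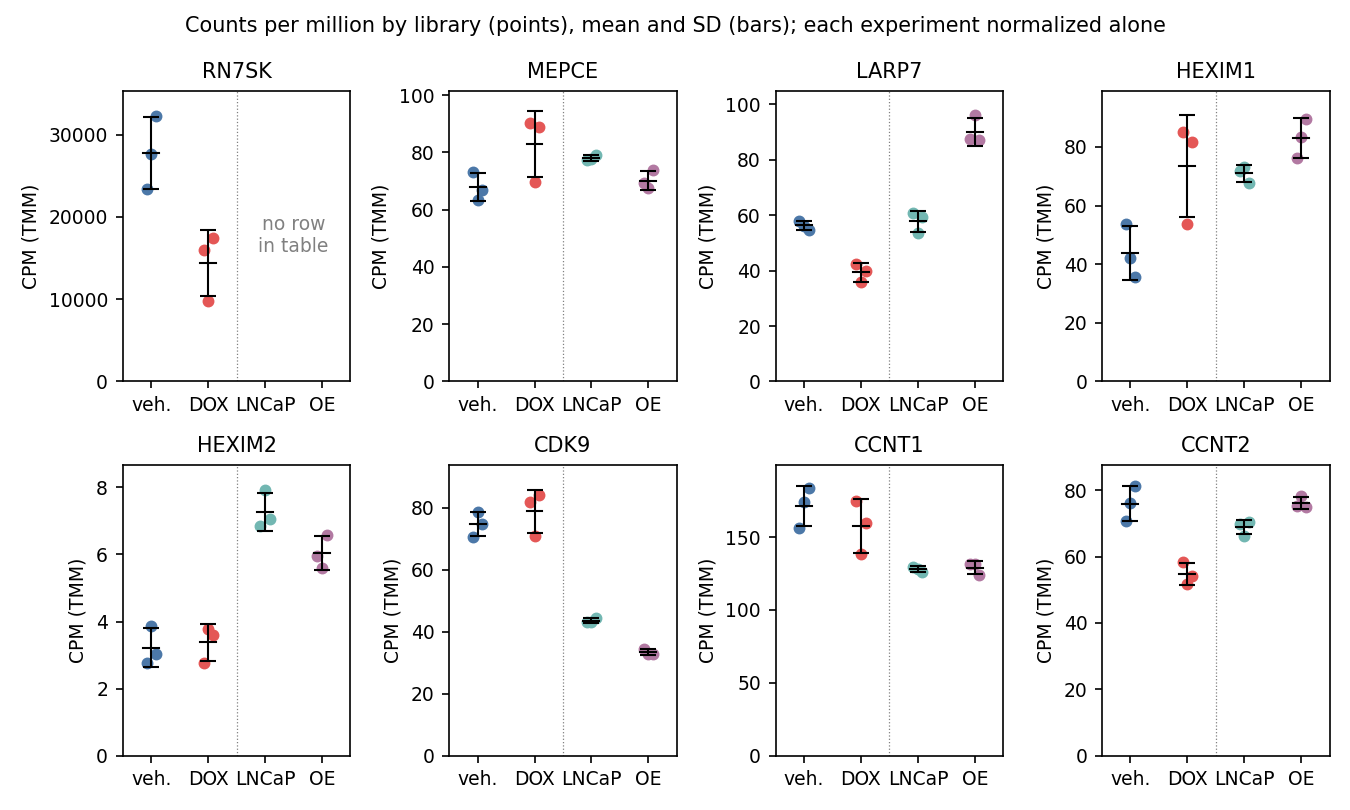
TMM-normalized CPM (y axes, starting at 0) of each of the 8 genes in vehicle (veh.), DOX, LNCaP and LNCaP/MUC1-C OE (OE) libraries; points are libraries and bars the mean and SD of 3. Vehicle and DOX do not overlap for RN7SK, LARP7 and CCNT2, and the experiments, which were normalized separately, are divided by a dotted line.

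In the DOX comparison 4 of the 8 genes were past the threshold of the fit over all genes, HEXIM1 as higher and RN7SK, LARP7 and CCNT2 as lower, where 27.3% of all genes were called. The groups did not overlap for 3 genes, all lower, as for 44.3% of all genes, 23.0% as lower and 21.2% as higher. In the overexpression comparison 5 of 7 were past the threshold, LARP7, HEXIM1 and CCNT2 as higher and MEPCE and CDK9 as lower, where 67.3% of all genes were called. There the groups did not overlap for 3 higher and 3 lower genes, as for 34.4% and 35.9% of all genes and 70.3% in either direction. The median log2 fold change of the listed genes was -0.03 with DOX and 0.01 with MUC1-C OE, as compared with -0.02 and -0.01 over all genes. Because the genes were listed with these values known, nothing is read from these counts.

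Leaving out 1 library changed several of these calls. RN7SK was no longer past the threshold without vehicle replicate 2 or vehicle replicate 3, and HEXIM1 without either of these or without DOX replicate 1 or DOX replicate 3. Without DOX replicate 2, MEPCE also passed it, which made 5 of 8. LARP7 and CCNT2 stayed past it in the DOX comparison whichever library was left out. In the overexpression comparison CCNT2 did not pass without LNCaP replicate 2, LNCaP replicate 3 or MUC1-C OE replicate 2, and MEPCE did not pass without LNCaP replicate 3 or MUC1-C OE replicate 2.

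**Figure D4:**
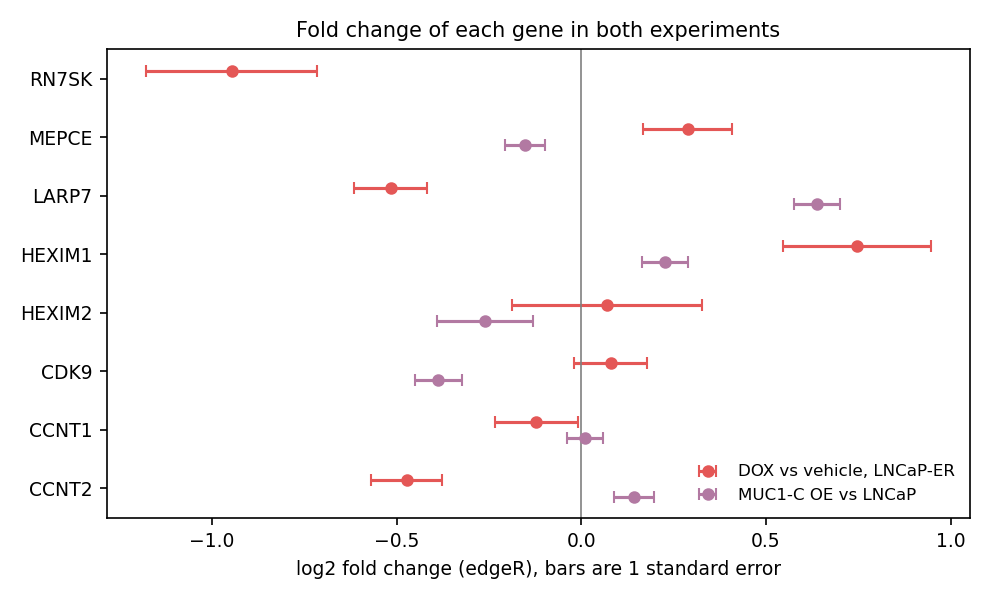
Log2 fold change (x axis) of each gene (y axis) from edgeR, for DOX against vehicle and for MUC1-C OE against LNCaP, with bars of 1 standard error. RN7SK, at -0.95, has no value in the overexpression experiment; LARP7 is at -0.52 and 0.64 and CCNT2 at -0.47 and 0.14.

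The authors also deposited TPM values (transcripts per 1000000) for the silencing libraries, a unit that divides counts by length and scales each library to 1 total. Since RN7SK is short, its share was far larger on this scale. It took 37.7%, 35.2% and 37.5% of all TPM in vehicle and 31.4%, 24.6% and 27.6% in DOX libraries, with means of 36.8% ± 1.40 and 27.9% ± 3.42 (SD, n = 3). These shares were 12.2 to 23.7 times its shares of counts. On log2(TPM + 1) the RN7SK difference was -0.41, and it was not past the threshold on this scale (adjusted p = 0.467 from limma). RN7SK, RN7SL1, RN7SL2 and RPPH1 together took 69.7%, 71.8% and 75.2% in vehicle and 63.0%, 52.5% and 68.1% in DOX libraries. All other genes were thus left with 30.3%, 28.2% and 24.8% of the scale in vehicle and 37.0%, 47.5% and 31.9% in DOX libraries.

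The length used for RN7SK was recovered from the ratio of counts to TPM. Over 7 short RNAs of known RefSeq length, namely RN7SL1, RN7SL2, RPPH1, TERC, SCARNA2, SCARNA7 and SCARNA10, this ratio was proportional to the length minus an offset of 285.65 to 288.91 bases, 1 value per library, with a residual of 1.99e-13 bases at most. With this offset RN7SK, of 332 bases, entered the TPM as 43.1 to 46.4 bases, and RN7SL1, of 299 bases, as 10.1 to 13.4 bases. RMRP, of 270 bases, was 1 of 2463 genes with counts and no TPM row. Of these genes, 2435 had a RefSeq length, which was under 300 bases for 2387. When TPM was recomputed from the counts with full lengths, the RN7SK share was 16.7%, 17.3% and 19.7% in vehicle and 12.01%, 7.91% and 12.6% in DOX libraries.

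The partner genes were ranked by deposited TPM, on which levels of different genes can be set side by side only as far as the lengths used hold. HEXIM1 entered this scale with 4496 to 4499 bases, whereas its RefSeq gene length is 3625 bases, so its place depends on that length. In vehicle libraries CDK9 had the highest mean, 20.5 ± 2.38 TPM (SD, n = 3). CCNT1 with 15.0 ± 0.956 TPM, LARP7 with 14.4 ± 2.51 TPM and MEPCE with 13.7 ± 2.87 TPM followed and did not differ beyond their spread. CCNT2 with 6.42 ± 0.487 TPM and HEXIM1 with 5.96 ± 2.12 TPM were again within their spread, and HEXIM2 was lowest with 0.796 ± 0.146 TPM. In DOX libraries CDK9 (31.7 ± 3.48 TPM) was still first and HEXIM2 (1.25 ± 0.383 TPM) last. HEXIM1, at 14.1 ± 1.77 TPM, was then above CCNT2, at 6.86 ± 1.17 TPM, in every library.

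The sign of the difference depended on the scale for LARP7, CCNT1 and CCNT2, whereas MEPCE, HEXIM1, HEXIM2 and CDK9 were higher on every scale used. On the deposited TPM scale, 7 of 7 partner genes had a higher mean log2(TPM + 1) in DOX libraries, and the groups did not overlap for 5, MEPCE, HEXIM1, HEXIM2, CDK9 and CCNT1. HEXIM2, at 0.651 to 0.943 TPM in vehicle and 0.975 to 1.69 TPM in DOX libraries, was too low for the 11400 genes described next. Medians were taken over the same 11400 genes on every scale, those with at least 1 deposited TPM in 3 libraries. RN7SK, RN7SL1, RN7SL2 and RPPH1 were not among them. Genes could pass this filter through the DOX libraries alone. The median difference on deposited TPM was itself 0.45, and 87.9% of the 11400 genes were higher. The groups did not overlap for 52.8% of those genes, 50.8% as higher and 1.94% as lower. After RN7SK was left out and each library was rescaled to the same total, that median was 0.31, and 5 partner genes were higher and 2 lower. After RN7SL1, RN7SL2 and RPPH1 were left out as well, it was 0.06, and 4 were higher and 3 lower. The groups then did not overlap for LARP7 and CCNT2, both lower, and for none of the higher ones, where they did not overlap for 48.4% of the 11400 genes, 20.1% as lower and 28.3% as higher. The median was 0.19 with full lengths and 0.04 on CPM of the library total.

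LARP7 shows the size of the shift, with a difference of 0.03 on deposited TPM, -0.15 without RN7SK, -0.42 without the 4 short RNAs, -0.29 with full lengths and -0.44 on CPM of the library total. CCNT2 went from 0.07 on deposited TPM to -0.37 without the 4 RNAs. HEXIM1 was higher on each of the 5 scales, at 1.15 on deposited TPM and 0.80 without the 4 RNAs, as was MEPCE, at 0.79 and 0.36. Relative to the median of all genes, CDK9 differed by little, with 0.61 against 0.45 on deposited TPM and 0.16 against 0.06 without the 4 RNAs.

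**Figure D5:**
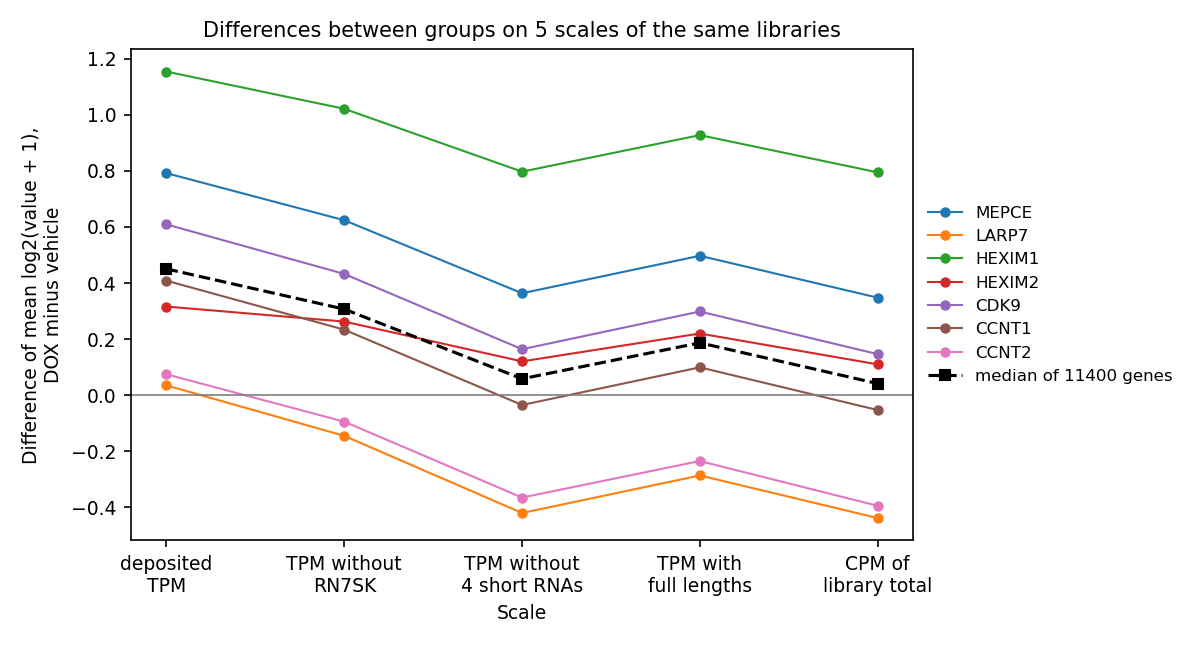
Difference of the mean log2(value + 1) between DOX and vehicle libraries (y axis) on 5 scales (x axis) for the 7 partner genes and for the median of 11400 genes (black squares). The median goes from 0.45 on deposited TPM to 0.06 without RN7SK, RN7SL1, RN7SL2 and RPPH1, and LARP7, CCNT1 and CCNT2 go from above 0 to below it.

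Calls over all genes moved in the same way. With limma on log2(TPM + 1), 45.4% of 11404 genes were called on the deposited scale, 43.2% as higher and 2.25% as lower. After rescaling without RN7SK 27.7% of 12019 genes were called, 24.2% as higher and 3.53% as lower. Without the 4 short RNAs 28.9% of 13047 genes were called, 17.8% as higher and 11.2% as lower. In the counts fit, leaving RN7SK out before scaling gave 4000 called genes in place of 4006.

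Proteins that bind 7SK or recruit P-TEFb made up a list of 27 genes, none of them among the 8. With DOX 7 rose and 5 fell at an adjusted p under 0.05, 15 did not pass, and the median log2 fold change was -0.04, where 12.8% of all genes were called higher and 14.5% lower. The 3 largest increases were in genes of the super elongation complex, which carries active P-TEFb. ELL2, an elongation factor of that complex, went from 118 ± 12.8 to 356 ± 176 CPM (SD, n = 3; log2 fold change 1.59, adjusted p = 0.0104 from edgeR). EAF2, its associated factor, had a log2 fold change of 2.56 (adjusted p = 0.0109 from edgeR), and AFF3, a scaffold of such complexes, of 0.90 (adjusted p = 0.00676 from edgeR). Over 13 alternatives EAF2 did not pass with the replicate number as a block, without a filter or without vehicle replicate 3 (adjusted p up to 0.174), and ELL2 did not pass with the block or without a filter (adjusted p up to 0.139).

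The largest decreases of that list were those of hnRNP proteins, which hold 7SK RNA after P-TEFb has left it. HNRNPA2B1 went from 483 ± 69.4 to 296 ± 53.1 CPM (log2 fold change -0.71, adjusted p = 0.0109 from edgeR), HNRNPA1 from 842 ± 35.2 to 537 ± 26.3 CPM (log2 fold change -0.65, adjusted p = 0.00225 from edgeR) and HNRNPR from 141 ± 2.11 to 102 ± 8.66 CPM (log2 fold change -0.48, adjusted p = 0.00652 from edgeR). With MUC1-C OE 14 of the 27 rose and 6 fell, with a median of 0.13, where 33.2% of all 13836 genes were called higher and 34.1% lower. HNRNPR (log2 fold change 0.82, adjusted p = 9.71e-11 from edgeR), the helicase DDX21 (0.84, adjusted p = 3.98e-10) and the phosphatase PPM1A (0.70, adjusted p = 6.4e-09) were the highest. JMJD6, a demethylase, was the lowest (-0.53, adjusted p = 3.7e-05), followed by EAF1 (-0.47, adjusted p = 1.38e-07) and AFF3 (-0.36, adjusted p = 0.000256).

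Of 27 pausing and elongation factors of Pol II, 2 rose and 6 fell with DOX, 19 did not pass, and the median was -0.07. Over all genes 27.3% were called, 12.8% as higher and 14.5% as lower. SUPT5H, the DSIF subunit that P-TEFb phosphorylates, rose from 107 ± 8.46 to 154 ± 26.9 CPM (log2 fold change 0.53, adjusted p = 0.019 from edgeR), and SUPT6H rose by 0.50 (adjusted p = 0.0121). TCEA1, the factor TFIIS that restarts arrested polymerase, had the largest decrease (-0.84, adjusted p = 0.00648), followed by the histone chaperone SSRP1 (-0.60, adjusted p = 0.00413) and CCNH, the cyclin of CDK7 (-0.51, adjusted p = 0.00633). Without vehicle replicate 3, 4 of the list were called, and neither SUPT5H nor SUPT6H passed without that library, vehicle replicate 2 or DOX replicate 3 (adjusted p up to 0.0965 and 0.0728). With MUC1-C OE, 15 of the 26 listed there rose and 5 fell, with a median of 0.13. Over all genes there 33.2% were called higher and 34.1% lower. SUPT16H, the partner of SSRP1, rose by 0.69 (adjusted p = 1e-10), PAF1 by 0.55 (adjusted p = 7.08e-08) and CDC73 by 0.50 (adjusted p = 1e-07), and TCEA1 fell by 0.38 (adjusted p = 4.63e-05).

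RN7SK is transcribed by Pol III from a promoter outside the gene, and of 22 genes for that machinery 3 rose and 3 fell with DOX, with a median of -0.08, as compared with 12.8% and 14.5% of all genes. SNAPC2 (0.54, adjusted p = 0.0124) and SNAPC5 (0.45, adjusted p = 0.0247), subunits of the complex that reads such promoters, and POLR3A, the largest subunit of the polymerase (0.44, adjusted p = 0.013), were higher. POU2F1, the activator OCT1 of such promoters, went from 130 ± 2.26 to 83.1 ± 2.42 CPM (log2 fold change -0.65, adjusted p = 0.00122 from edgeR), and BDP1, a subunit of TFIIIB, had -0.52 (adjusted p = 0.0051). POLR3F, at -0.34 (adjusted p = 0.0392), was past the threshold under 3 of 13 alternatives, SNAPC5 and POLR3A under 9 and SNAPC2 under 12. With 1 library left out, 2 to 6 of the list were called, the fewest without DOX replicate 3. With MUC1-C OE 11 rose and 6 fell, with a median of 0.20, where 33.2% of all genes were called higher and 34.1% lower. POLR3G, a subunit known from stem cells and tumours, had the largest increase (1.20, adjusted p = 1.1e-07), whereas POLR3D (-0.77, adjusted p = 9.01e-09) and BRF2, the TFIIIB subunit for promoters like that of RN7SK (-0.52, adjusted p = 7.26e-05), fell.

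Immediate early genes are known for Pol II that is held near the promoter until P-TEFb acts. With DOX 9 rose and 1 fell of the 19 tested, with a median of 0.41, as compared with 12.8% higher and 14.5% lower over all genes. EGR1 (2.74, adjusted p = 0.00306), JUNB (1.37, adjusted p = 0.00864) and ZFP36 (0.98, adjusted p = 0.00274) rose most, although JUNB did not pass without a filter (adjusted p = 0.121) or with the replicate block (adjusted p = 0.0619). MYC went from 540 ± 143 to 360 ± 40.9 CPM (log2 fold change -0.59, adjusted p = 0.0491 from edgeR), with overlapping groups, and was past the threshold under 4 of 13 alternatives. Without vehicle replicate 3, 6 of the list were called, as without DOX replicate 1 or DOX replicate 3. With MUC1-C OE 7 rose and 6 fell of 20, with a median of 0.14, where 33.2% of all genes were called higher and 34.1% lower. EGR1 (-2.11, adjusted p = 0.00114) and FOS (-2.89, adjusted p = 2.29e-08) were the lowest there, whereas KLF6 (1.54, adjusted p = 2.49e-12) and ATF3 (1.30, adjusted p = 6.85e-06) were the highest.

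Replication-dependent histone genes are known for mRNA that ends in a stem-loop in place of a poly(A) tail. The counts do not tell mRNA ends apart, so the form measured is not known. Of 16 tested with DOX, 14 fell and 0 rose, with a median of -1.19, as compared with 14.5% lower and 12.8% higher over all genes. The linker histone gene HIST1H1B went from 159 ± 18.1 to 37.5 ± 10.9 CPM (log2 fold change -2.08, adjusted p = 0.000532 from edgeR), and HIST1H3B (-1.83, adjusted p = 0.00215) and HIST1H3D (-1.83, adjusted p = 0.000435) were alike. With MUC1-C OE 8 of 9 fell and 1 rose, with a median of -1.32, where 34.1% of all genes were called lower and 33.2% higher. HIST2H2BE (-2.22, adjusted p = 1.18e-09) and HIST1H2BD (-2.02, adjusted p = 7.51e-09) fell most. Only 9 of the 20 histone genes passed the filter there, and their summed level was at most 141 CPM.

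The genes whose profile was most like that of RN7SK over the 6 silencing libraries were found by the root-mean-square difference of centred log2 CPM among 10744 genes with a mean of at least 5 CPM. HIST1H3H was the nearest, with a difference of 0.118, as compared with a median of 0.576 over all genes. PSMB5, a proteasome subunit, had 0.142, DDX3Y 0.145, MBTPS2, a membrane protease, 0.148 and DPP4, a surface peptidase, 0.149, all among the 5 nearest. Of the partner genes LARP7 had rank 526, with 0.341, CCNT2 rank 587, with 0.348, and HEXIM1 rank 10224, with 0.913. CCNT1, CDK9 and MEPCE had ranks 2534, 5181 and 7644, and HEXIM2, with a mean under 5 CPM, was not ranked. The other short RNAs RPPH1, RN7SL2, RN7SL1 and RMRP had ranks 202, 357, 533 and 962. These ranks describe 6 libraries in 2 groups, and the nearest genes were picked from these same libraries.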

How the data were processed

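Libraries of 2 experiments were analysed, 12 in all, with 3 per group. Cells were cultured in triplicate per the labels, which gave the groups and replicate numbers. Per the labels the authors made stranded mRNA libraries and used STAR, DESeq2 and the build GRCh38 (hg38), with no version or annotation given in the sources used here. The authors deposited whole-number counts per gene for both experiments, without normalization, and TPM for the silencing experiment. How the authors set gene lengths for the deposited TPM is not given in the sources used here, and the offset described above was fitted from the values over 7 short RNAs with at least 30 counts in every library. The overexpression table held 12 columns of other samples, which were not used. Paralogs, pseudogenes and overlapping genes may share reads.

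Each count table was fitted alone, with edgeR 4.0.16 (TMM factors, default filter on low counts, robust quasi-likelihood test, Benjamini-Hochberg adjustment over all genes tested, adjusted p under 0.05). Adjusted p-values in the text come from this test unless another tool is named. The methods of the study name DESeq2, which was run as an alternative (1.42.0). TPM was tested with limma 3.58.1 on log2(TPM + 1) for genes with at least 1 TPM in 3 libraries, so fold changes of low genes are understated. Standard errors were derived from the F statistic. Depth and spread limit each value as given with it. Replicates of a group differed beyond the noise of counting (chi-square between 2.20 and 61.7 for each degree of freedom), and no 2 libraries were merged. The 8 genes, the other gene lists and the alternatives were chosen with earlier results of these data known. Genes named in each list were up to 3 called higher and 3 called lower with the largest change and a mean of at least 5 CPM, and not each of them is reported. SNORD17, the abundant Pol III transcripts and the markers were named beside this rule. The 5 genes nearest to RN7SK were ranked after centring log2 CPM with a prior count of 2. Sequences and coordinates are from RefSeq (GRCh38.p14) and GENCODE release 29. All 8 symbols matched RefSeq. The scripts were tested on simulated data.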

Additional observations from a re-analysis of the deposited data

How the results depend on the processing

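Results were recomputed with DESeq2, other scaling factors, library size only, other filters, RN7SK left out before scaling, other TPM settings, the replicate block and each library left out. Leaving out RN7SK could not be run on the overexpression table, which has no row for it. Of 1114 recomputed values, 1025 kept their side of the threshold or stayed within their spread. With library size only, CCNT2 in the overexpression comparison went from 0.143 to -0.0111, and the genes called there were 3050 higher and 6388 lower in place of 4600 and 4712. The same setting gave 2430 higher and 1647 lower with DOX in place of 1875 and 2131. Without a filter, 2 other short RNAs were called with DOX, the deposited TPM gave 2598 calls and a median difference of 0.18, and TPM without RN7SK gave 927 calls. With at least 10 counts in every library, 4 histone genes were called with MUC1-C OE. Chosen after seeing the data, leaving out RN7SL1, RN7SL2 and RPPH1 too gave a median of 0.0535, and full lengths gave an RN7SK share of 17.9% in vehicle and 10.8% in DOX. The cause of these shifts was not tested.

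With 1 library left out, genes called with DOX ranged from 2002 (without vehicle replicate 3) to 5243 (without DOX replicate 2), with 2067 without DOX replicate 3 and 2200 without vehicle replicate 2. The listed 8 ranged from 2 to 5, 7SK-binding proteins and recruiters from 7 to 12, elongation factors from 4 to 11, Pol III genes from 2 to 6, other short RNAs from 6 to 12 and immediate early genes from 6 to 10. The 7 with MUC1-C OE ranged from 3 to 5. Calls on deposited TPM ranged from 2557 to 6083, and those without RN7SK from 1278 to 4716, both lowest without vehicle replicate 2 and highest without vehicle replicate 1.

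Replicate numbers were not seen to pair the samples. The correlation of same-numbered libraries' deviations was -0.15 to 0.09, and the highest with a differently numbered library was 0.0172 to 0.104. With the replicate block, 4226 genes were called with DOX, 8965 with MUC1-C OE, 6108 on deposited TPM and 4906 without RN7SK. Of 27 list genes named for DOX, 14 were called under every alternative and 13 lost the call in at least 1, and the 27 for MUC1-C OE were called under every alternative. None of these 54 changed sign. Depth limits HEXIM2 most, with 73 to 167 counts a library.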
